A study of Mus musculus with 4 samples.

Results

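The insulin-like growth factor (IGF) genes examined here are 10: the ligands Igf1 and Igf2, the receptors Igf1r and Igf2r, and the IGF-binding protein genes Igfbp2, Igfbp3, Igfbp4, Igfbp5, Igfbp6 and Igfbp7. They were chosen by symbol, and all 10 were found among the 23281 genes of the expression table. RNA sequencing had been done on 3 libraries of horizontal basal cells (HBCs), the reserve stem cells of the mouse olfactory epithelium, and on 1 library of respiratory basal cells (RBCs), the basal stem cells of the respiratory epithelium. The HBCs came from wildtype mice and were cultured in vitro under control conditions to passage 3, with no cell sort. The RBCs were microdissected in vivo and sorted as TdTomato+ from KRT5-CreER;Ai9-fl(stop)TdTomato mice, in which the keratin 5 promoter drives an inducible Cre that switches on the red reporter. Age, sex, inducing agent and the number of animals are not given in the labels, nor whether each HBC library had its own animal. The design asks how the cultured cells compare with basal cells taken from the animal, so tissue of origin, culture, sort and strain cannot be told apart as sources of a difference.

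IGF ligands are secreted growth factors that act through Igf1r, a receptor tyrosine kinase that signals to PI3K, AKT and mTOR. Igf2r, the cation-independent mannose 6-phosphate receptor, takes up Igf2 for degradation and sorts lysosomal enzymes. The binding proteins hold IGFs in the extracellular space, and proteases release the ligand by cutting them; Igfbp7 binds IGFs only weakly. In epithelia these genes are known from the control of basal cell growth, and in stroma from fibroblasts, mural cells and vessels.

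All values are depth-scaled FPKM, that is, fragments per kilobase of transcript as deposited, divided by 1 factor per library (0.843, 1.05 and 1.07 in the order of the HBC libraries, and 1.06 for RBC). Deposited sums were 8377230 to 10856000 in HBC libraries, against 9877610 in the RBC library, and depth in reads is unknown. A gene counts as called when its limma adjusted p (Benjamini-Hochberg) is under 0.05 and its change on the log2(value + 1) scale reaches 2-fold, and log2 changes are HBC minus RBC. Of 16440 tested genes, 12.8% were called higher in HBC, 34.2% were called higher in RBC and 47.0% in either direction. The share of calls that were higher in HBC was 27.2%, and it was 46.8% with library medians set equal and 53.7% under quantile normalization. The spread comes from the HBC libraries alone and is assumed for the lone RBC library, and it may be technical.

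Transcripts of basal markers were seen in both sources, and both also held transcripts that mark other cell types. Each of 10 basal markers was detected in all 4 libraries, with a summed level of 26279 to 27425 in HBC libraries, against 68812 in the RBC library. Of the 10, 8 were called higher in RBC, beside 34.2% of all tested genes, the share to set beside each count here. Krt5 (18625 ± 369 in HBC and 26488 in RBC) held most of the HBC sum and was not called. Among the 8, named after their values were seen, were Krt15 (1267 ± 41.5 and 17199), Trp63 (546 ± 12.8 and 4307) and Dlk2 (54.6 ± 11.0 and 1781). Itga6, not called, lay the other way (1284 ± 21.4 and 844). Of 45 markers of leukocytes, fibroblasts, endothelium, mural cells and glia, 36 were called higher in RBC, beside 34.2% of all tested genes. Another 2, Cd68 and Egfl7, were called higher in HBC, beside 12.8%. Of the 36, 23 averaged below the filter minimum of 1 in HBC libraries and were tested only through the RBC library, which favoured that direction. The summed level of the 45 was 1564 to 1725 in HBC libraries, against 26580 in the RBC library, where Lyz2 (14770) and Dcn (6902) held most of it. The 10 endothelial markers summed to 88.4 to 142 in HBC libraries, with Egfl7 at 109 ± 27.1, against 111 in the RBC library. Markers listed at 0 in all 3 HBC libraries included Csf1r, Tie1, Emcn, Cldn5, Cnn1, Sox10 and Fabp7, and none of the 45 was at 0 in the RBC library. All 8 markers of olfactory neurons, all 5 of sustentacular cells and all 5 tested markers of ciliated cells were called higher in RBC as well. Of these, 3 neuron, 4 sustentacular and 1 ciliated marker averaged below 1 in HBC libraries and passed the filter only through the RBC library. Of 6 tested secretory markers, 3 were called higher in RBC and 2, named after their values were seen, higher in HBC: lactoferrin (Ltf), at 119163 ± 1162 in HBC (SD, n = 3) and 18086 in RBC, and the water channel Aqp5, at 20440 ± 583 in HBC and 5534 in RBC. The 3 secretory markers called higher in RBC were Bpifa1 (7.89 ± 2.60 in HBC and 439407 in RBC), Bpifb1 (0.216 ± 0.375 and 16650) and Muc5b (0 and 1205). Of these, 2, Bpifb1 and Muc5b, averaged below 1 in HBC libraries. The secretory markers summed to 138735 to 141372 in HBC and 481166 in RBC, where Bpifa1 held most of the sum. In bulk samples, fewer cells of a type and less RNA per cell cannot be told apart.

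Among the IGF genes, the binding proteins held the largest changes. Cultured HBCs were dominated by Igfbp3, whereas the RBC library held Igfbp5, Igfbp3, Igfbp2 and Igfbp4 at levels of 1651 to 4084. Of the 10 IGF genes, 1 was called higher in HBC (Igfbp3) and 6 were called higher in RBC, against 12.8% and 34.2% of all tested genes. The 6 were Igf1, Igf2, Igfbp2, Igfbp4, Igfbp5 and Igfbp6, and Igf1r, Igf2r and Igfbp7 were not called. The median log2 change of the 10 genes was -1.98, and that of all tested genes was -0.45. All 10 genes passed the filter on low values, but Igf1 and Igfbp6, with HBC means below the minimum of 1, did so only through the RBC library, so the filter itself favoured their direction. The same held for 2382 of the 5621 genes called higher in RBC over the whole table, so the 34.2% carries this effect too.

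**Figure D1:**
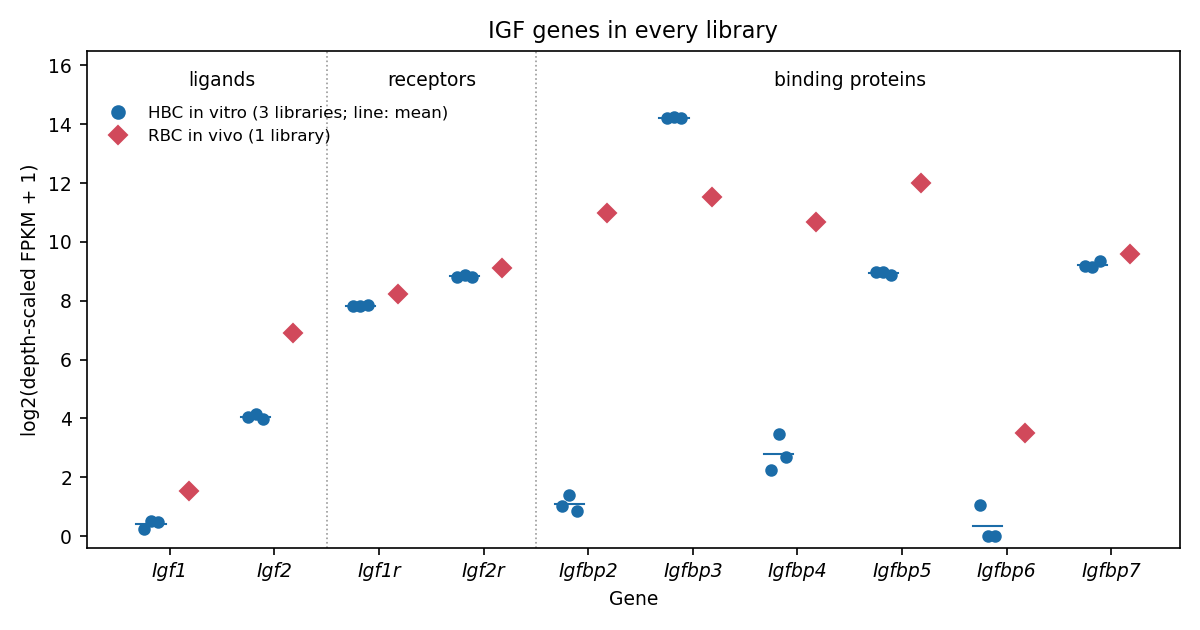
Level of each IGF gene in every library as log2(depth-scaled FPKM + 1), with the 3 HBC libraries as circles (line, mean of the log2 values) left of the RBC library as a diamond. Igfbp3 is the gene whose HBC libraries lie above the RBC library, and the 3 HBC libraries lie close together for the genes with high values.

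Within each group the order of the 10 levels differed. In HBC libraries the order was Igfbp3 (19138 ± 377, SD, n = 3), Igfbp7 (596 ± 48.7), Igfbp5 (493 ± 21.4), Igf2r (455 ± 16.2), Igf1r (226 ± 3.75), Igf2 (15.7 ± 1.06), Igfbp4 (6.39 ± 3.24), Igfbp2 (1.17 ± 0.433), Igfbp6 (0.356 ± 0.616) and Igf1 (0.330 ± 0.138). The HBC ranges of the neighbours Igfbp5 and Igf2r overlapped, as did those of Igfbp2 and Igfbp6 and of Igfbp6 and Igf1. The other neighbours did not overlap. In the single RBC library the order was Igfbp5, Igfbp3, Igfbp2, Igfbp4, Igfbp7, Igf2r, Igf1r, Igf2, Igfbp6 and Igf1, and its neighbours cannot be ranked against a spread.

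Promoter windows of the 4 binding protein genes called with the highest levels are shown here because Igfbp2, Igfbp4 and Igfbp5 shared a direction and Igfbp3 had the other. The windows run from 250 bases before to 50 bases after the annotated start, 5′ to 3′, from RefSeq on GRCm38.p6, and all 10 genes had an entry. Capitals mark matches on either strand to a TATA box (TATAAA), a GC box (GGGCGG) or an AP-1 motif (TGANTCA). The windows are chr11:7213874-7214173 (minus strand) for Igfbp3, chr1:72824230-72824529 (plus strand) for Igfbp2 (the upstream of 2 listed starts), chr11:99040994-99041293 (plus strand) for Igfbp4 and chr1:72874816-72875115 (minus strand) for Igfbp5.
Igfbp3: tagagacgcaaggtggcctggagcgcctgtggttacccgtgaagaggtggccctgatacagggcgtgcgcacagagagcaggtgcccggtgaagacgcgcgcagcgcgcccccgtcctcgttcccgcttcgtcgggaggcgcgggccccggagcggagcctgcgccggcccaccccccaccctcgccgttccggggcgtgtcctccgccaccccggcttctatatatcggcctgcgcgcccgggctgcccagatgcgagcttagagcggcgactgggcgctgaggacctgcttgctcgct
Igfbp2: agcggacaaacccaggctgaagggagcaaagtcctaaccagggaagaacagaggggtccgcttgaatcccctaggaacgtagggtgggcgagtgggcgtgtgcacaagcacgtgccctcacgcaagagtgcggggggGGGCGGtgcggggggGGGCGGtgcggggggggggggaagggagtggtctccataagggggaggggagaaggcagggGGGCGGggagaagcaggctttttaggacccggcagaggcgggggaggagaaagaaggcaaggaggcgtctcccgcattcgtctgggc
Igfbp4: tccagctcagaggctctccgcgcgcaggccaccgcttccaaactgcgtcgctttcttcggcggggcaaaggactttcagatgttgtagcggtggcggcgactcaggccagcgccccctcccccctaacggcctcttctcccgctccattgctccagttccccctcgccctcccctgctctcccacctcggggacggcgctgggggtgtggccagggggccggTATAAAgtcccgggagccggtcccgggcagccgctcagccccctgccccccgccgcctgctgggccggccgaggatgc
Igfbp5: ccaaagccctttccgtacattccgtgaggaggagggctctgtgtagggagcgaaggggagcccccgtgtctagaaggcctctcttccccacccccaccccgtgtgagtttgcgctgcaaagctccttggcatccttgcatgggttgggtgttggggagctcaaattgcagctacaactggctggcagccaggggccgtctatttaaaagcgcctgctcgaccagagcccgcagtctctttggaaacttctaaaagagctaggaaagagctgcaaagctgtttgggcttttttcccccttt
The Igfbp3 window held 37 CG dinucleotides, that of Igfbp4 27, that of Igfbp2 18 and that of Igfbp5 10, against a median of 7 over 32851 windows of the same length. The Igfbp2 window held 3 GC boxes, which 35.7% of all windows hold at least once. The Igfbp4 window held 1 TATA box, found in 13.6% of all windows. None of the 3 motifs, as spelled above, was in the Igfbp3 or Igfbp5 window, and the AP-1 motif, found in 7.81% of windows, was in none of the 4. The window of the other Igfbp2 start, not printed, held 14 CG dinucleotides, 0 GC boxes and 1 AP-1 motif. These matches describe letters only, and other spellings, such as variant TATA boxes, were not searched.

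Igfbp3, which encodes the main carrier of IGFs in serum and is also made by epithelial cells, stood at 19025, 19559 and 18831 in HBC libraries 1, 2 and 3, against 2917 in the RBC library. All 3 HBC libraries were above the RBC library, and their SD was 1.97% of their mean. The level was 6.56-fold higher in HBC (log2 change 2.71 ± 0.0437 SE, limma adjusted p = 0.000260). By rank, which no scaling changes, Igfbp3 was the 54th, 52nd and 61st most abundant of 23281 genes in the HBC libraries and the 394th in the RBC library. Igfbp1, its neighbour on chromosome 11 with no protein-coding gene between them in GENCODE M21, was listed at 0 in all 4 libraries.

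Igfbp5, a binding protein that attaches to extracellular matrix, stood at 507, 504 and 469 in HBC libraries, against 4084 in the RBC library, 8.28-fold higher in RBC (log2 change -3.05 ± 0.0639 SE, limma adjusted p = 0.000453). Igfbp2, its neighbour on chromosome 1 with no protein-coding gene between them, stood at 1.03, 1.65 and 0.822 in HBC libraries, against 2038 in the RBC library. As deposited, the HBC values of Igfbp2 were 1, 1.99 and 1.01 times its smallest value, steps that are close to whole multiples, so they lie near the worth of single reads and no fold is given. The log2 change of Igfbp2 was -9.89 (95% interval -10.9 to -8.91, limma adjusted p = 0.000824). The pair thus shared a direction, with Igfbp5 far above Igfbp2 in HBC libraries.

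Igfbp4, whose product is cut by the protease pappalysin, stood at 3.74, 10.001 and 5.44 in HBC libraries, against 1651 in the RBC library. The HBC libraries varied by 50.7% (SD) of their mean but were all far below the RBC library, which was 258-fold higher (log2 change -7.89 ± 0.621 SE, limma adjusted p = 0.00466). Igfbp6, a binding protein that prefers Igf2, stood at 1.07 in HBC library 1, 0 in libraries 2 and 3, and 10.2 in the RBC library. Its call (limma adjusted p = 0.0272) was lost without HBC library 2 (adjusted p = 0.0950) or 3 (0.0927), under quantile normalization (0.367) and with a pseudocount of 0.1 (0.106) or 10, where the change missed the 2-fold minimum. Over the alternatives the adjusted p of Igfbp6 ran from 0.000260 to 0.367.

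Igfbp7, also named angiomodulin and known from vessel walls, stood at 574, 561 and 651 in HBC libraries, against 772 in the RBC library. The RBC library lay above all 3 HBC libraries, but the change was not called (log2 change -0.38, 95% interval -0.77 to 0.02, limma adjusted p = 0.0713), and its sign turned with library medians set equal (0.13). Igfbp7 overlaps Polr2b on the opposite strand in GENCODE M21, and the strand setting of the counting is not given, so their reads may not be told apart.

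**Figure D2:**
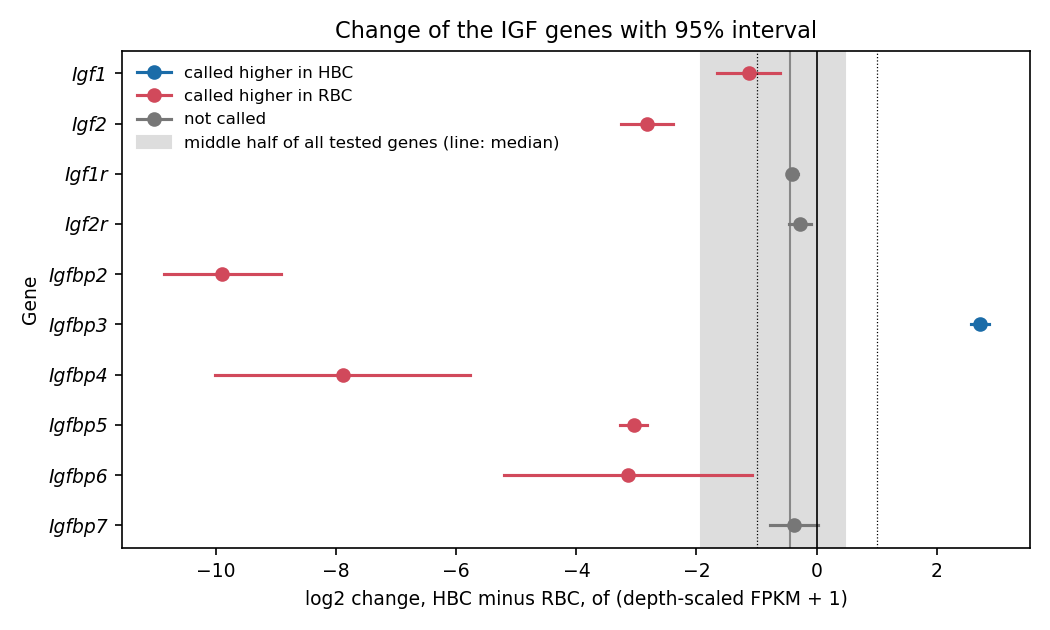
Log2 change (HBC minus RBC, of depth-scaled FPKM + 1) of each IGF gene with its 95% interval from limma; dotted lines mark the 2-fold minimum, and the grey band and line give the range between the outer quartiles and median of all tested genes. Igfbp3 at 2.71 lies to the right, Igfbp2 at -9.89 and Igfbp4 at -7.89 lie farthest to the left, and both receptors lie near the median of all genes.

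The make-up of the binding protein transcripts was compared within each library, where no scaling between libraries enters. Igfbp3 made up 94.6% ± 0.214 (SD, n = 3) of the summed FPKM of Igfbp1 to Igfbp7 in HBC libraries, against 25.4% in the RBC library. Igfbp5 made up 2.44% ± 0.0871 in HBC libraries, against 35.6% in the RBC library. The share of Igfbp2 was 0.00575% ± 0.00202 in HBC libraries, against 17.8% in the RBC library, and that of Igfbp4 was 0.0314% ± 0.0154 and 14.4%. Igfbp7 took 2.95% ± 0.283 in HBC libraries, against 6.73% in the RBC library. The summed level was 20235 ± 355 in HBC libraries, against 11472 in the RBC library. The ratio of Igfbp3 to Igfbp5 was 37.5, 38.8 and 40.2 in HBC libraries, against 0.714 in the RBC library, so the leading binding protein transcript differed. Beside these shares, the summed level of 10 fibroblast markers, such as decorin (Dcn), was 152 to 169 in HBC libraries, against 7925 in the RBC library. Dcn itself averaged 44.0 ± 11.8 in HBC libraries, against 6902 in the RBC library. The 8 mural cell markers summed to 579 to 606 in HBC libraries, against 1945 in the RBC library. Rgs5 (419 ± 22.9 in HBC and 370 in RBC) and Mcam (133 ± 18.6 and 78.4) held most of the HBC sum and were not called. The other 6 mural markers were called higher in RBC, beside 34.2% of all tested genes. Of these, 4 averaged below 1 in HBC libraries. The RBCs had been sorted as TdTomato+ under KRT5-CreER. Epithelial markers differed as well: 5 sustentacular markers summed to 119 to 138 in HBC libraries, against 30222 in the RBC library. Secretory markers summed to 138735 to 141372 in HBC libraries, against 481166 in the RBC library. The part of any of these cell types in the RBC levels of Igfbp2, Igfbp4, Igfbp5 and Igfbp6 was not tested.

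**Figure D3:**
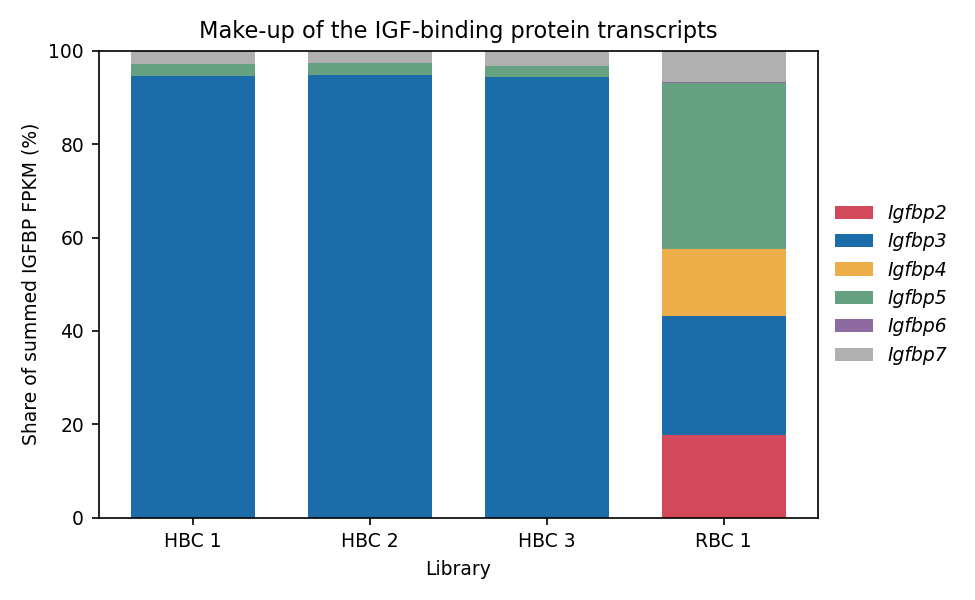
Share of each IGF-binding protein gene in the summed FPKM of Igfbp1 to Igfbp7 (%) in the 3 HBC libraries and the RBC library; Igfbp1 was listed at 0 and is not drawn. Igfbp3 fills about 94.6% of each HBC bar and 25.4% of the RBC bar, where Igfbp5 takes 35.6%.

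Both ligands were low in HBC libraries, and Igf2 was the higher of the pair in every library. Igf2, a fetal growth factor expressed from the paternal allele, stood at 15.5, 16.8 and 14.8 in HBC libraries, against 117 in the RBC library. It was 7.48-fold higher in RBC (log2 change -2.83 ± 0.127 SE, limma adjusted p = 0.00174), and all HBC libraries were below the RBC library. Its neighbour H19, a maternally expressed non-coding RNA, stood at 1.93, 0.387 and 0.382 in HBC libraries, against 157 in the RBC library (log2 change -6.47, limma adjusted p = 0.00680). With an HBC mean of 0.898, H19 passed the filter only through the RBC library, which favoured that direction. Ins2, the insulin gene on the other side of Igf2, was listed at 0 in all 4 libraries, as was Ins1.

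Igf1, the growth hormone-responsive ligand made in many tissues by stromal cells and macrophages, stood at 0.171, 0.413 and 0.406 in HBC libraries, against 1.91 in the RBC library. As deposited, these values were 1, 3.00 and 3.01 times the smallest value in HBC libraries, against 14.0 times in the RBC library, near whole multiples of what may be single reads, so no fold is given. The log2 change was -1.13 (limma adjusted p = 0.0134). The call was lost without HBC library 2 (adjusted p = 0.0545) or 3 (0.0551) and with a pseudocount of 10 (log2 change -0.21), and the sign turned under quantile normalization (0.69), with adjusted p from 0.00162 to 0.0551 over the alternatives. Of 10 leukocyte markers, 8 were called higher in RBC and 1 higher in HBC, beside 34.2% and 12.8% of all tested genes. Of the 8, 4 averaged below the filter minimum of 1 in HBC libraries. In the same RBC library Lyz2 and Csf1r stood at 14770 and 35.5, against 21.5 ± 3.00 and 0 in HBC libraries. Ptprc and Itgam were low there, at 10.5 and 11.6. Cd68 went the other way, with 515 ± 42.6 in HBC libraries (SD, n = 3) and 65.7 in the RBC library. The part of leukocytes in the ligand levels was not tested.

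The receptors were nearly level between the groups. Igf1r stood at 223, 225 and 231 in HBC libraries, against 299.7 in the RBC library, above all of them. The log2 change of -0.40 (95% interval -0.50 to -0.30, limma adjusted p = 0.00391) stayed within 2-fold. Igf2r stood at 444, 474 and 448 in HBC libraries, against 552 in the RBC library, again above all of them, with a log2 change of -0.28 (95% interval -0.46 to -0.10, limma adjusted p = 0.0256). Setting library medians equal turned both signs (0.10 for Igf1r and 0.23 for Igf2r), and the median of all genes moved by 0.52 in the same step. The ratio of Igf2r to Igf1r within a library was 2.01 ± 0.0838 (SD, n = 3) in HBC and 1.84 in RBC.

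Airn, the imprinted antisense transcript that overlaps Igf2r, stood at 94.9, 64.7 and 95.3 in HBC libraries, against 655 in the RBC library (log2 change -2.95, limma adjusted p = 0.00840). Igf2as, antisense to Igf2, is named here after its values were seen and stood at 0.254, 1.22 and 0.804 in HBC libraries, against 5.26 in the RBC library. It too passed the filter only through the RBC library. Its call (limma adjusted p = 0.0372) was lost in several alternatives, among them without HBC library 2 (adjusted p = 0.0638) or 3 (0.121), and its sign turned under quantile normalization (0.78). Without a stated strand setting, reads of Igf2r and Airn, or of Igf2 and Igf2as, cannot be told apart where the genes overlap.

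Among 68 other genes of the pathway in 8 lists, 59 were tested, 10 were called higher in HBC and 16 were called higher in RBC, near the 12.8% and 34.2% of all tested genes, and the median log2 change was -0.17 against -0.45 for all tested genes. The number called higher in RBC was 8 with library medians set equal and 10 under quantile normalization. In the list of receptors and adaptors, 1 of 9 tested genes was called higher in HBC and 3 higher in RBC, shares near those of all tested genes (12.8% and 34.2%). The insulin receptor Insr stood at 162, 154 and 163 in HBC libraries, against 402 in the RBC library, 2.52-fold higher in RBC (limma adjusted p = 0.00124), but under the 2-fold minimum when library medians were set equal (log2 change -0.82). The ratio of Igf1r to Insr within a library was 1.42 ± 0.0413 (SD, n = 3) in HBC and 0.746 in RBC, so Igf1r led in the cultures and Insr in the RBC library.

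Transcripts of the docking proteins that link both receptors to PI3K differed in opposite directions. Irs1 stood at 247, 251 and 243 in HBC libraries, against 67.8 in the RBC library, 3.64-fold higher in HBC (log2 change 1.85 ± 0.0322 SE, limma adjusted p = 0.000309). Irs2 stood at 143, 133 and 124 in HBC libraries, against 368 in the RBC library, 2.76-fold higher in RBC (log2 change -1.46 ± 0.105 SE, limma adjusted p = 0.00397), with -0.96 when library medians were set equal. The scaffold Gab1 was 3.80-fold higher in RBC (91.0 ± 3.22 in HBC, SD, n = 3, and 346 in RBC). Irs1 was thus the more abundant of these 2 transcripts in HBC libraries and Irs2 in the RBC library.

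Genes that release IGFs from binding proteins, or restrain that release, differed in both directions. Of 7 tested genes in the list of IGFBP proteases and stanniocalcins, 5 were called higher in HBC and 1 higher in RBC, beside 12.8% and 34.2% of all tested genes, with a median log2 change of 2.06 beside -0.45. Stc2, a secreted inhibitor of pappalysin, stood at 262, 266 and 255 in HBC libraries, against 2.91 in the RBC library (log2 change 6.07, limma adjusted p = 5.57e-05). The RBC value was low, so no fold is given. The log2 change of Stc2 was 4.39 with a pseudocount of 10 and 7.58 under quantile normalization. Htra1, a secreted serine protease that cuts IGF-binding proteins, stood at 4664, 4889 and 4624 in HBC libraries, against 122 in the RBC library, 38.7-fold higher in HBC (log2 change 5.26, limma adjusted p = 5.72e-05). In both genes the HBC libraries lay close together and far above the RBC library.

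The metalloproteinase Adam12 averaged 19.4 ± 1.75 in HBC libraries (SD, n = 3), against 1.48 in the RBC library, a low value, so no fold is given. Its log2 change was 3.03, with 1.35 for a pseudocount of 10 and 4.39 under quantile normalization. The lysosomal protease Ctsd averaged 29366 ± 509 in HBC libraries, against 7037 in the RBC library, 4.17-fold higher in HBC. Adam9, named after its values were seen, was 3.53-fold higher in HBC (3349 ± 25.9 and 949). Stc1, the other stanniocalcin, went the other way, with 3.28, 6.33 and 2.86 in HBC libraries, against 20.6 in the RBC library (log2 change -2.13, limma adjusted p = 0.0406). The Stc1 call was lost without HBC library 1 (adjusted p = 0.135) or 3 (0.110) and in other alternatives, and its sign turned under quantile normalization (0.23). In the list of other binding proteins, the endocytic receptor Lrp1 was 3.93-fold higher in RBC (109 ± 3.48 in HBC and 429 in RBC).

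Downstream, most genes of the PI3K, AKT, FOXO and mTOR list stayed within 2-fold: 19 of 24 were not called, 2 were called higher in HBC and 3 higher in RBC. Of all tested genes, 47.0% were called, 12.8% higher in HBC and 34.2% higher in RBC. Eif4ebp1, the translation repressor that mTOR phosphorylates, stood at 4621, 4712 and 4751 in HBC libraries, against 363 in the RBC library, 12.9-fold higher in HBC (log2 change 3.69 ± 0.0235 SE, limma adjusted p = 2.78e-05). Foxo1, the transcription factor that AKT excludes from the nucleus, stood at 132, 129 and 123 in HBC libraries, against 542 in the RBC library, 4.24-fold higher in RBC (log2 change -2.08 ± 0.0529 SE, limma adjusted p = 0.000655). The other called genes, named after their values were seen, were Rheb (2.06-fold higher in HBC), Pik3r1 (2.47-fold higher in RBC) and Phlpp2 (2.13-fold higher in RBC). Each of these 3 fell under the 2-fold minimum in at least 1 alternative scaling.

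Both tested IGF2 mRNA-binding protein genes were called higher in HBC, beside 12.8% of all tested genes. They encode proteins known to bind Igf2 and other transcripts. Igf2bp3 stood at 57.5, 61.9 and 66.4 in HBC libraries, against 11.4 in the RBC library, 5.44-fold higher in HBC (limma adjusted p = 0.00245). Igf2bp2, named after its values were seen, averaged 493 ± 2.90 in HBC libraries (SD, n = 3), against 239 in the RBC library, with a log2 change of 1.04 that was 0.93 for values as deposited and 0.94 with equal sums. In the growth hormone list, 3 of 5 genes were called higher in RBC, beside 34.2% of all tested genes, and 2 were not called. The 3 were Stat5a and, named after their values were seen, Ghr (2.94-fold) and Stat5b (2.41-fold). The Stat5b call was lost once library medians were equalised, at a log2 change of -0.76, and with quantile normalization, at -0.78. Stat5a, a transcription factor of growth hormone signalling, was 3.07-fold higher in RBC (32.2 ± 3.59 in HBC and 98.9 in RBC), with a log2 change of -1.59 that was -0.66 under quantile normalization. Of 7 mannose 6-phosphate sorting genes, 2 were called higher in RBC, no larger a share than the 34.2% of all tested genes. They were Gga2 and, named after its values were seen, Gga3 (2.34-fold), whose call was lost once library medians were equalised, at a log2 change of -0.72, and with quantile normalization, at -0.96. Gga2, an adaptor for vesicles that carry Igf2r, was 4.27-fold higher (66.4 ± 3.38 in HBC and 283 in RBC). In the RBC library of these comparisons, 36 of 45 leukocyte, stromal, vascular and glial markers were called higher too, and their part in the pathway genes was not tested.

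**Figure D4:**
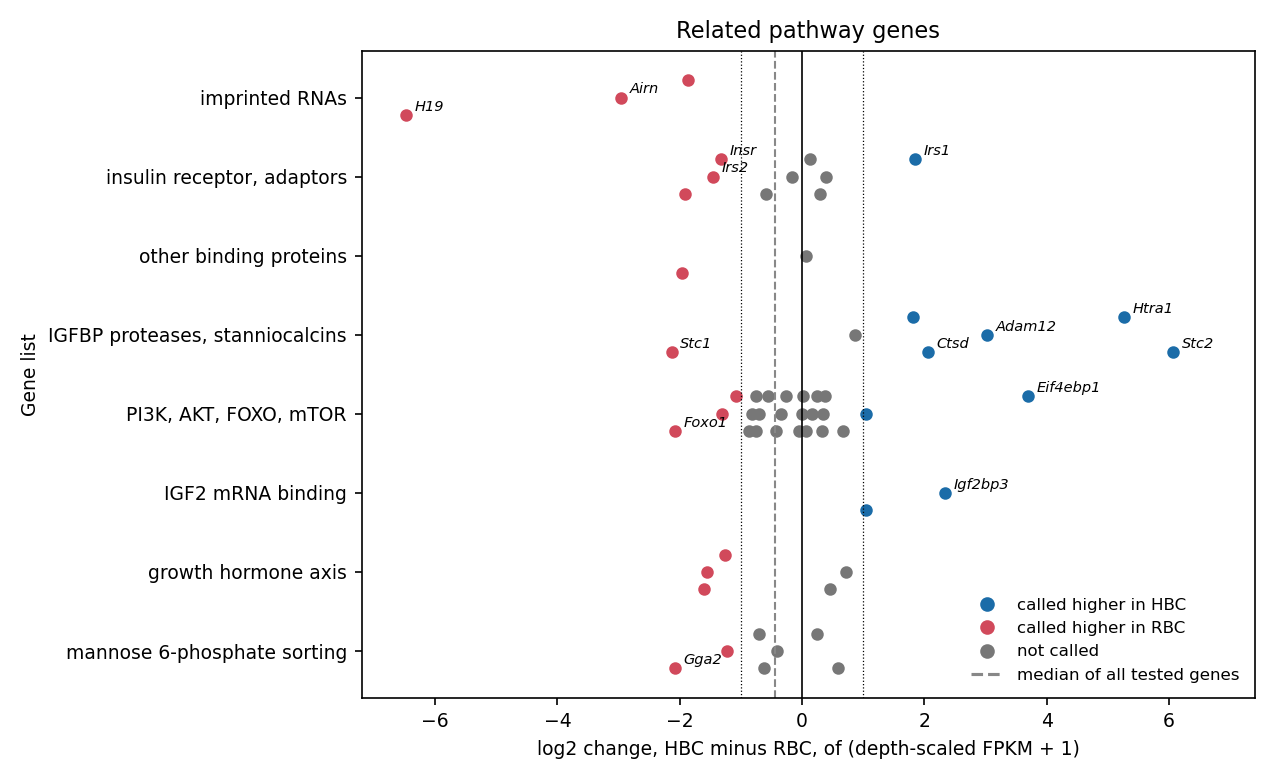
Log2 change (HBC minus RBC, of depth-scaled FPKM + 1) of the 59 tested pathway genes by list; each point is a gene, coloured by its call, dotted lines mark the 2-fold minimum and the dashed line the median of all tested genes. In the protease and stanniocalcin list 5 of 7 points are called higher in HBC, with Stc2 at 6.07 and Htra1 at 5.26, and most points of the PI3K list lie within the dotted lines.

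Genes with a pattern like that of the leading IGF genes were found by the Euclidean distance of log2(value + 1) over the 4 libraries, a measure of level and change alone. For Igfbp3, the most abundant of the 10 genes, the nearest were S100a14 (distance 0.311), S100a10 (0.509) and H2-K1 (0.549). S100a14 averaged 19505 ± 1073 in HBC libraries (SD, n = 3), against 3525 in the RBC library. For Igfbp2, the gene with the largest change, the nearest were Fmo1 (distance 0.613), Slc47a1 (1.04) and Abi3bp (1.17). H2-K1 has near-identical paralogs, so the share of reads given to it is uncertain.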

How the data were processed

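Per the labels' protocols, RNA came from a microprep column kit and went into standard Illumina libraries. STAR, Cufflinks 2.2.1, Cuffnorm and the mm9 build appear in the submitters' processing notes, without role or order. The gene annotation, filters and strand setting are named neither there nor in the labels. The authors deposited 1 FPKM value per gene and library, in 1 table. Where every value of a gene was below 4, 12.4% to 26.0% of genes had a ratio within 2% of 1 in a given pair of libraries, so a single read appears to be worth about the same in each library and the values were taken to carry depth. They were divided by median-ratio factors over the 11134 genes that reached 10 in every library. Genes with a mean of the 2 group means of at least 1 were tested with limma 3.58.1 in R 4.3.3 (log2(value + 1), mean-variance trend, 2 residual degrees of freedom, two-sided). Calls of the 1256 genes at 0 in all 3 HBC libraries follow from the filter. FPKM holds no counts, so no counting interval is given.

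All 10 IGF genes are named. From each pathway list, genes called with at least a 4-fold change are named, or else the gene with the largest change, and Insr, Irs1, Irs2 and Igfbp1 in any case. The 3 nearest genes by distance are named for the most abundant and the most changed IGF gene. The genes and lists were chosen with earlier results of these data known. RefSeq and GENCODE M21 lie on GRCm38, not mm9, and were used for names, neighbours and promoter sequences. The fit was tested on simulated data for genes with an HBC mean of at least 1. The simulated RBC library was given the spread of the HBC libraries, so that assumption was not tested. In addition, 12 alternative settings were tried.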

Additional observations from a re-analysis of the deposited data

How the results depend on the processing

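The calls of Igf2, Igfbp2, Igfbp3, Igfbp4 and Igfbp5 held in all 12 alternatives, with log2 changes of -2.94 to -1.89, -10.7 to -7.52, 2.42 to 3.22, -8.22 to -6.68 and -3.30 to -2.54. Those of Igf1 and Igfbp6 did not, as given above, and Igf1 was below the filter with library medians set equal or a minimum of 5. Signs turned with library medians set equal for Igf1r (0.10), Igf2r (0.23) and Igfbp7 (0.13), and under quantile normalization for Igf1 (0.69), Igf2as (0.78) and Stc1 (0.23). Across all tested genes the median log2 change moved by 0.52 with medians set equal, 0.54 under quantile normalization, -0.10 with equal sums and -0.11 for values as deposited. Setting medians equal gave 3790 genes called higher in HBC, and 8 pathway genes called higher in RBC. Quantile normalization gave 3663 genes called higher in HBC and 3155 in RBC, 10 pathway genes called higher in RBC, and 5 of the 45 other-cell markers called higher in HBC and 21 in RBC. Leaving out 1 HBC library gave 1 (without library 2) to 2 such markers called higher in HBC. No paired analysis was possible because the RBC group has a single library. The lone RBC library could not be left out, and values near single reads limit Igf1, Igfbp2 and Igfbp6 in HBC libraries. Low HBC values limit the size of the Igfbp4 change too. The cause of each change was not tested.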
